A study of Mus musculus with 3 samples.

Results

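The 10 genes described here, Eln, Fbn1, Mfap4, Mfap5, Fbln5, Efemp2, Emilin1, Ltbp4, Lox and Loxl1, encode components of the elastic fibre and the proteins that assemble it. They were chosen by name, from a list of elastic fibre symbols, among the 32285 genes counted in each library, and each symbol was found once. Their transcripts were measured by droplet-based single-cell RNA sequencing of whole aortas from male APOE gene replacement mice, which carry a human allele (APOE2, APOE3 or APOE4) in place of mouse Apoe on a C57BL/6J background. All mice ate a Western diet (42% fat by calories, 0.2% cholesterol) for 16 weeks from 12 weeks of age. The cells of 6 APOE2 mice, 5 APOE3 mice and 7 APOE4 mice were pooled by genotype and gave 1 library each, so a genotype cannot be told apart from its pool or its library, and no difference between genotypes was tested. There is no group on another diet and none with mouse Apoe. The comparison asks how transcripts of the elastic wall differ among pools of aortas that carry different apoE isoforms.

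Elastic fibres let large arteries stretch and recoil. Tropoelastin, the product of Eln, is deposited on a scaffold of fibrillin microfibrils, guided by fibulins, latent TGF-beta binding proteins and emilins, and lysyl oxidases then cross-link it into insoluble elastin. In the aorta the fibres lie in concentric lamellae between layers of smooth muscle cells, and most of the elastin is laid down before adulthood, so a transcript level in an adult wall is not a measure of the fibre. The aortas were digested with collagenases, DNase, hyaluronidase and elastase before capture, which frees cells from this matrix.

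After a filter on cells, 11772 cells of the APOE2 library, 6737 of the APOE3 library and 8248 of the APOE4 library were kept, with 124926887 to 168310501 unique molecular identifiers (UMIs, 1 for each captured transcript) in a library and a median of 12047 to 17618 UMIs in a cell. The libraries shared 23 to 30 barcodes in a pair. Of 22 clusters, 10 were smooth muscle-like, with 7279, 4169 and 5377 cells in APOE2, APOE3 and APOE4, and 1 was fibroblast-like, with 1178, 673 and 956 cells. All 10 markers of either list were detected in the class that carries its name in all 3 libraries. Together the markers for fibroblasts reached 1143, 764 and 551 CPM (the UMIs of a gene in every 1000000 UMIs) in the smooth muscle-like cells, against 25355 to 33936 CPM in the fibroblast-like cells. A further 6 clusters, which also kept the smooth muscle markers, were left unnamed. In 3 of these at least 3 markers of another cell type were raised, and they are not described. The others (C7, C9 and C16) raised fewer, and with the 10 named clusters they are called the 13 smooth muscle clusters below. Rgs5, a listed pericyte marker, was among the 10 leading genes of C7 and of C16, which raised 1 and 2 pericyte markers in turn. Against the other smooth muscle clusters, C7 raised 4 of 7 markers of the descending aorta and C16 raised 2 of 6 of the aortic arch. Both kept 10 of 10 smooth muscle markers. The gene set counted by the authors holds no human APOE, so the targeted gene does not check the labels.

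A level is given below as the CPM of a gene over all cells of a class in 1 library, and a difference as the log2 ratio of 2 CPM values. UMI counts are not scaled by transcript length, so levels are compared between classes and libraries but not between genes. Each interval is a 95% interval for counting error alone and leaves out the spread between mice. For the 10 genes its half-width was at most 2.73% of the level in smooth muscle-like cells and at most 7.95% in fibroblast-like cells, so the counting error is small beside most ratios and the unknown spread between pools is not in it. Fewer cells of a kind within a class and less RNA in each cell cannot be told apart in such sums.

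In the GRCm38 (mm10) genome the members lie apart from each other. Eln is on chromosome 5 from 134702593 to 134747323 (minus strand) and Emilin1 on the same chromosome from 30913402 to 30921277 (plus strand). Fbn1 is on chromosome 2 from 125300594 to 125507993, Mfap5 on chromosome 6 from 122505845 to 122529290, Ltbp4 on chromosome 7 from 27305136 to 27337692, and Loxl1 on chromosome 9 from 58287738 to 58313186. Mfap4 is on chromosome 11 from 61485431 to 61488900, Fbln5 on chromosome 12 from 101746565 to 101819055, and Efemp2 on chromosome 19 from 5473954 to 5482517. All members are protein-coding in the GENCODE vM21 annotation, and UMIs were counted over the gene as a whole.

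Sequence before the start is shown for Fbln5 and Efemp2, which were lower in APOE2 and in APOE4 than in APOE3 in smooth muscle-like cells, and for Ltbp4, which was not lower in APOE4. The set of RefSeq (GRCm38.p6) stretches used here held such sequence for 5 of the 10 members (not Eln, Lox, Loxl1, Mfap4 or Mfap5). Absence from this set does not mean that RefSeq lists no start for a gene. For Fbn1 and Emilin1 the sequence lay within an annotated exon and is not shown. The set listed 2 starts for Fbln5, 3 for Efemp2 and 3 for Ltbp4. Only the start nearest the annotated start of the gene was used, and the others were not searched. The stretch ends at the base before this start for Fbln5 and Efemp2 and 81 bases before it for Ltbp4, where an annotated exon begins. It is written 5′ to 3′ on the gene's strand. Capitals mark a GC box (letters GGGCGG), a box of the letters CCAAT, and a SMAD box (letters GTCTG), each on either strand.
Fbln5, chr12:101819120-101819369, minus strand: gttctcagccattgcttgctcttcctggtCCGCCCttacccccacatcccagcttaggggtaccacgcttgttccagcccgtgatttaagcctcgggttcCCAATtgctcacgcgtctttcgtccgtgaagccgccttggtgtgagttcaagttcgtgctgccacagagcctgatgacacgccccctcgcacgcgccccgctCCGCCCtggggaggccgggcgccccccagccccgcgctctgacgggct
Efemp2, chr19:5473696-5473945, plus strand: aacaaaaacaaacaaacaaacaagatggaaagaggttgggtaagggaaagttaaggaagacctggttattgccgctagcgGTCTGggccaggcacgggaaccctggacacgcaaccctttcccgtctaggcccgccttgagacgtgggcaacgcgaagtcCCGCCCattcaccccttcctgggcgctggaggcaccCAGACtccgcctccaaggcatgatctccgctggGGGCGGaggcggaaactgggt
Ltbp4, chr7:27337693-27337862, minus strand: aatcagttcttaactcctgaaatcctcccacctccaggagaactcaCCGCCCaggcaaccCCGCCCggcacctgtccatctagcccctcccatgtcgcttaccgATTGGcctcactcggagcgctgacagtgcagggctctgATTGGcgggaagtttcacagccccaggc
The Fbln5 stretch held 2 GC boxes and 1 CCAAT box, the Efemp2 stretch 2 GC boxes and 2 SMAD boxes, and the Ltbp4 stretch 2 GC boxes and 2 CCAAT boxes. A TATA box (TATAAA), a TEAD core (CATTCC) and a CArG box, the site of serum response factor in many smooth muscle promoters, were also searched on both strands, and these letters are in none of the 3 stretches. Among 32851 RefSeq stretches of 250 bases, 32.7% held a GC box, 33.9% a CCAAT box, 42.2% a SMAD box, 12.4% a TATA box, 12.6% a TEAD core and 1.47% a CArG box. Over the 170 bases that match the Ltbp4 stretch these shares were 19.5% for the GC box and 23.3% for the CCAAT box. No motif searched overlapped another. The GC content was 65.2% for Fbln5, 59.2% for Efemp2 and 60.6% for Ltbp4, against medians of 52.4% over 250 bases and 51.2% over 170.

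Elastin transcripts were higher in smooth muscle-like than in fibroblast-like cells in all 3 libraries. Eln, which encodes tropoelastin, reached 1202, 1265 and 990 CPM there in APOE2, APOE3 and APOE4, and 445, 631 and 575 CPM in fibroblast-like cells. In smooth muscle-like cells the APOE4 library was the lowest and the other two were close together, whereas in fibroblast-like cells the APOE2 library was the lowest. The log2 ratio of Eln from APOE4 to APOE3 was -0.35 in smooth muscle-like cells (interval -0.37 to -0.34), and that from APOE2 to APOE3 was -0.07 (interval -0.09 to -0.06). In fibroblast-like cells the ratio from APOE2 to APOE3 was -0.50 (interval -0.55 to -0.45). With fibroblasts picked cell by cell from their marker UMIs, not by cluster, this ratio was 0.11, so its direction depended on how fibroblasts were chosen. That choice gave 1399, 771 and 1004 cells in APOE2, APOE3 and APOE4, against 1178, 673 and 956 by cluster. In fibroblast-like cells the smooth muscle markers summed to 4351, 5659 and 4817 CPM, with the same order over the libraries as Eln there. T lymphocyte-like cells, which should lack Eln, stood at 648, 1532 and 517 CPM for it. The part of RNA from smooth muscle cells in the Eln of fibroblast-like cells was not tested. The smooth muscle-like clusters held 73.0% of all Eln UMIs and the fibroblast-like cells 4.0%, and 86.9% lay in the 13 smooth muscle clusters.

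**Figure D1:**
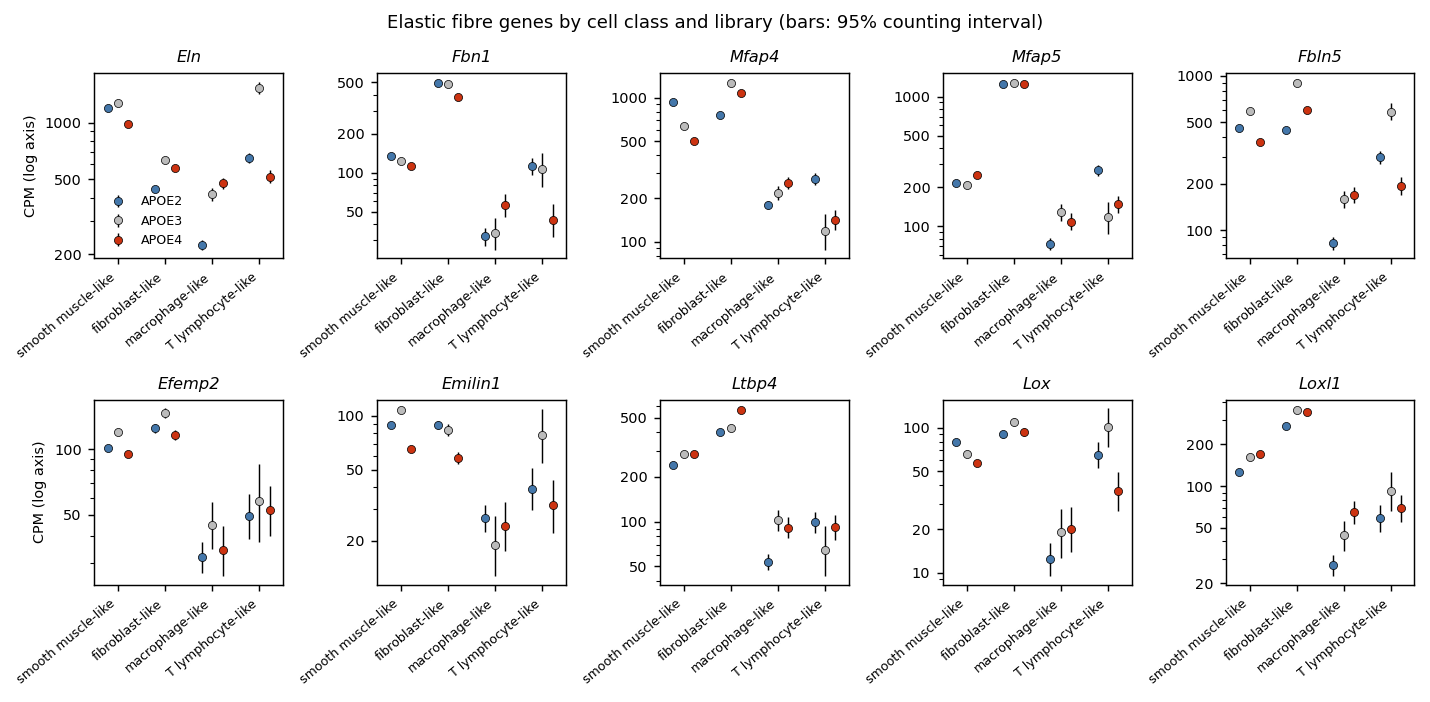
CPM of the 10 elastic fibre genes (log axes, a range of its own in each panel) in smooth muscle-like, fibroblast-like, macrophage-like and T lymphocyte-like cells of the APOE2, APOE3 and APOE4 libraries; points are 1 library each and bars are 95% counting intervals. Mfap5 and Fbn1 stand highest in fibroblast-like cells in all 3 libraries and Eln stands higher in smooth muscle-like than in fibroblast-like cells, while the T lymphocyte-like cells, which should lack Eln, stand between 517 and 1532 CPM for it.

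Among the microfibril genes, Mfap4 had the largest ratios between libraries. Mfap4 encodes a glycoprotein that binds fibrillin and tropoelastin. Its level in smooth muscle-like cells was 927, 637 and 502 CPM in APOE2, APOE3 and APOE4. In fibroblast-like cells the same gene stood at 761, 1270 and 1086 CPM. The APOE2 library was thus the highest of the 3 in smooth muscle-like cells and the lowest in fibroblast-like cells. From APOE2 to APOE3 the log2 ratio was 0.54 (interval 0.53 to 0.56) in the former and -0.74 (interval -0.78 to -0.70) in the latter, and from APOE4 to APOE2 it was -0.88 and 0.51. The order of the 2 classes also turned: the log2 ratio of smooth muscle-like to fibroblast-like cells was 0.285, -0.995 and -1.11 in APOE2, APOE3 and APOE4. The summed level of the fibroblast markers in smooth muscle-like cells, 1143, 764 and 551 CPM, had the same order over the libraries as Mfap4 there, and its part in the result was not tested.

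Fbn1 and Mfap5 had a higher CPM in fibroblast-like than in smooth muscle-like cells in all 3 libraries. The smooth muscle-like cells, which were more numerous, held 57.1% of all Fbn1 UMIs and 43.5% of all Mfap5 UMIs, against 25.1% and 29.0% in fibroblast-like cells. Fbn1 encodes fibrillin-1, the main protein of microfibrils, and reached 494, 489 and 386 CPM in fibroblast-like cells of APOE2, APOE3 and APOE4, against 134, 123 and 112 CPM in smooth muscle-like cells. The APOE4 library was the lowest in both classes, with a log2 ratio to APOE3 of -0.34 in fibroblast-like cells (interval -0.40 to -0.28) and -0.14 in smooth muscle-like cells (interval -0.18 to -0.10). Mfap5 encodes a small glycoprotein of the microfibril and stood at 1254, 1279 and 1241 CPM in fibroblast-like cells. It was nearly level among the libraries in this sum, but not within each of the fibroblast clusters described below. In smooth muscle-like cells it stood at 216, 206 and 250 CPM and was highest in APOE4, with a log2 ratio to APOE3 of 0.28 (interval 0.25 to 0.31). Mfap5 had the lowest ratio of smooth muscle-like to fibroblast-like cells among the 10 members, with log2 values of -2.54, -2.63 and -2.31 in APOE2, APOE3 and APOE4.

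The linker genes were lower in APOE4 than in APOE3, except Ltbp4. Fbln5 encodes fibulin-5, which tethers tropoelastin to microfibrils and to cell integrins. In smooth muscle-like cells it stood at 460, 594 and 373 CPM in APOE2, APOE3 and APOE4, and in fibroblast-like cells 444, 898 and 601 CPM. APOE3 was the highest library in both classes. The log2 ratios to APOE3 in smooth muscle-like cells were -0.37 for APOE2 (interval -0.39 to -0.35) and -0.67 for APOE4 (interval -0.69 to -0.65). Those in fibroblast-like cells were -1.02 for APOE2 (interval -1.07 to -0.97) and -0.58 for APOE4 (interval -0.63 to -0.53).

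Emilin1 encodes a glycoprotein at the surface between elastin and microfibrils that also restrains TGF-beta processing. It stood at 89.5, 109 and 65.3 CPM in smooth muscle-like cells of APOE2, APOE3 and APOE4, and at 89.1, 83.6 and 58.0 CPM in fibroblast-like cells. APOE4 was the lowest library in both classes, with log2 ratios to APOE3 of -0.73 (interval -0.78 to -0.69) and -0.53 (interval -0.68 to -0.37). Efemp2 encodes fibulin-4, which brings lysyl oxidase to tropoelastin, and showed smaller differences. Its level was 101, 121 and 95.5 CPM in smooth muscle-like cells and 125, 147 and 117 CPM in fibroblast-like cells, so that APOE3 was the highest in both, with log2 ratios from APOE4 to APOE3 of -0.34 and -0.33. Ltbp4 encodes a latent TGF-beta binding protein that also promotes elastin assembly with fibulin-5. It stood at 241, 284 and 285 CPM in smooth muscle-like cells, where APOE3 and APOE4 were indistinguishable by counting error (log2 ratio 0.00, interval -0.02 to 0.03). In fibroblast-like cells it stood at 398, 428 and 568 CPM, and the ratio from APOE4 to APOE3 was 0.41 (interval 0.35 to 0.47), the only member above 0 in that comparison.

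The lysyl oxidase genes had opposite orders over the libraries in smooth muscle-like cells. Lox encodes lysyl oxidase, which starts the cross-linking of elastin and collagen. The gene lies on chromosome 18 from 52516067 to 52529867, and its transcript stood at 79.0, 66.1 and 56.6 CPM in smooth muscle-like cells of APOE2, APOE3 and APOE4. Loxl1 encodes a related enzyme needed to maintain elastic fibres, and stood at 127, 163 and 170 CPM in the same cells. APOE2 was therefore the highest library for Lox and the lowest for Loxl1, with log2 ratios to APOE3 of 0.26 (interval 0.21 to 0.30) and -0.36 (interval -0.40 to -0.33). Within the smooth muscle clusters the Lox ratio had either sign, as given below. In fibroblast-like cells Lox stood at 90.1, 109 and 93.0 CPM and Loxl1 at 269, 353 and 343 CPM, with APOE3 the highest for both genes. The ratio of Loxl1 from APOE4 to APOE3 in those cells was -0.04 (interval -0.11 to 0.03).

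**Figure D2:**
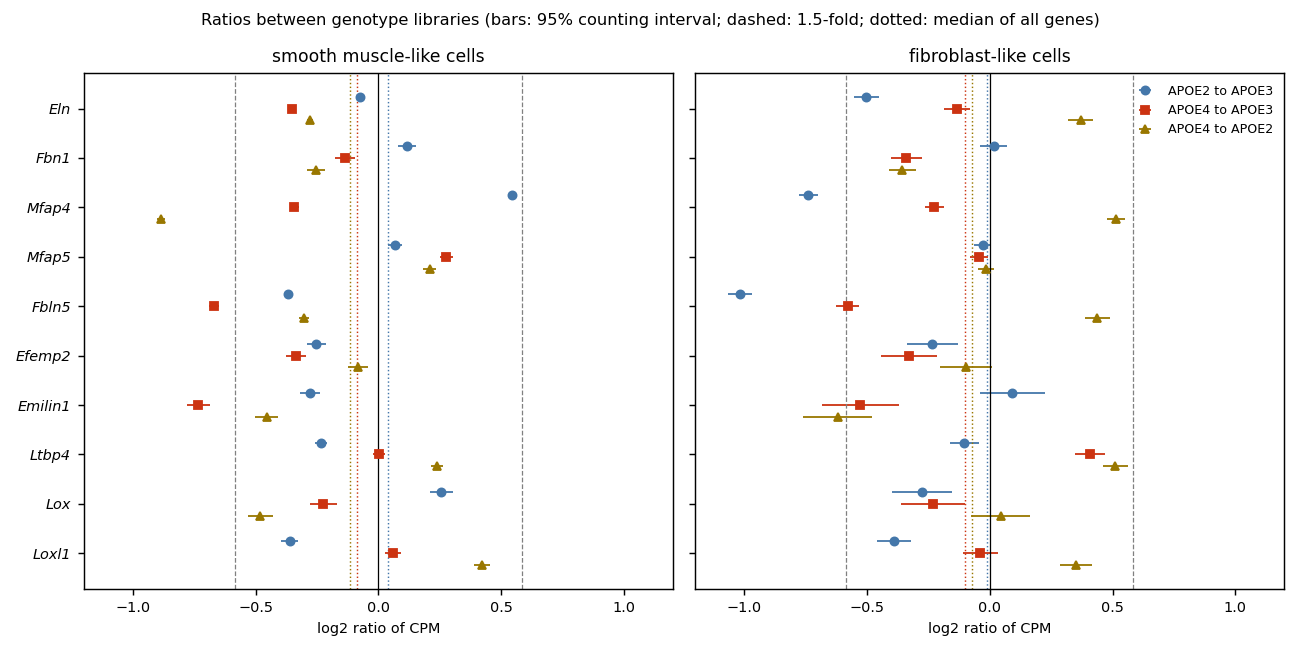
Log2 ratios of CPM between genotype libraries for the 10 elastic fibre genes in smooth muscle-like (left) and fibroblast-like cells (right); points are APOE2 to APOE3, APOE4 to APOE3 and APOE4 to APOE2, bars are 95% counting intervals, dashed lines mark 1.5-fold and dotted lines the median of all genes with at least 100 UMIs. Fbln5 and Emilin1 lie at -0.67 and -0.73 for APOE4 to APOE3 in smooth muscle-like cells, and Mfap4 lies on opposite sides of 0 in the 2 classes for APOE2 to APOE3.

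Counted as a list, few members were 1.5-fold apart. The share of all genes with at least 100 UMIs in the 2 libraries that were that far apart is the background. In smooth muscle-like cells none of the 10 members was 1.5-fold higher or lower in APOE2 than in APOE3, where the background was 7.42% higher and 2.64% lower. From APOE4 to APOE3, Fbln5 and Emilin1 were at least 1.5-fold lower and no member was that much higher, against a background of 2.68% lower and 5.92% higher. From APOE4 to APOE2 only Mfap4 was past that fold, and lower in APOE4, against 8.98% lower and 6.04% higher. In fibroblast-like cells Fbln5 and Mfap4 were at least 1.5-fold lower in APOE2 than in APOE3 and none was higher, against 4.76% lower and 3.25% higher. No member was past the fold from APOE4 to APOE3 in those cells, where the background was 3.88% in either direction. From APOE4 to APOE2 only Emilin1 was past it, and lower, against 5.21% lower and 5.08% higher. The comparisons share libraries, so these counts are not independent of each other.

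The median of the 10 log2 ratios lay below that of all genes in 5 of the 6 comparisons. In smooth muscle-like cells it was -0.15 for APOE2 to APOE3, with 4 members above 0 and 6 below, beside a median of 0.04 over 13604 genes. For APOE4 to APOE3 it was -0.28, with 3 above and 7 below, beside -0.09 over 13345 genes, and for APOE4 to APOE2 it was -0.27, with 3 above and 7 below, beside -0.12 over 13751 genes. In fibroblast-like cells it was -0.25 for APOE2 to APOE3, with 2 members above 0, beside -0.01 over 10947 genes. It was -0.23 for APOE4 to APOE3, with 1 member above 0, beside -0.10 over 10538 genes. For APOE4 to APOE2 it was 0.20, with 6 members above 0, beside -0.07 over 11092 genes.

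The differences between libraries were then followed within the 13 smooth muscle clusters, which were formed without these genes. The clusters are parts of the same libraries, so a shift of a whole library would show in all of them. Counts of clusters are therefore not independent support, and no share of all genes was counted beside them. In smooth muscle-like cells the median of all genes from APOE4 to APOE3 was itself -0.09. Fbln5 was lower in APOE4 than in APOE3 in 13 of the 13 clusters, with log2 ratios from -0.79 in C9 to -0.45 in C14, and lower in APOE2 than in APOE3 in 13, from -1.06 in C1 to -0.11 in C8. Emilin1 was lower in APOE4 than in APOE3 in 13 clusters, from -0.97 in C6 to -0.38 in C8. In the same comparison Efemp2 and Lox were lower in 13 clusters, and Mfap5 was higher in 12. Eln was also lower in APOE4 than in APOE3 in 13 clusters, from -0.84 in C16 to -0.22 in C12, but from APOE2 to APOE3 it was higher in 5 clusters and lower in 8. Loxl1 was lower in APOE2 than in APOE3 in 13 clusters, from -0.62 to -0.09. Lox was higher in APOE2 than in APOE3 in 9 clusters and lower in 4, from -0.28 in C14 to 1.03 in C12. Mfap4 was higher in APOE2 than in APOE3 in 11 clusters, by up to 1.27 on the log2 scale in C16, and lower in C1 and C14. C9 and C14 were shallow, with UMI counts of 0.26 and 0.24 times the median of their libraries. Their median UMI count also differed among APOE2, APOE3 and APOE4, at 1717, 5927 and 7544.5 in C9 and 3553, 4578 and 1685 in C14.

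Cluster C1 stood apart in the APOE2 library. It held 18.01% of the APOE2 cells in these clusters, against 10.0% in APOE3 and 11.4% in APOE4, and in APOE2 its Mfap4 was 403 CPM against 560 and 461 in APOE3 and APOE4. Its Eln was 787, 1137 and 881 CPM and its Fbln5 281, 584.6 and 356 CPM, so that the APOE2 cells of C1 were the lowest of the 3 libraries for these genes. Without C1 the ratio of Eln from APOE2 to APOE3 was 0.01 in smooth muscle-like cells, in place of -0.07.

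**Figure D3:**
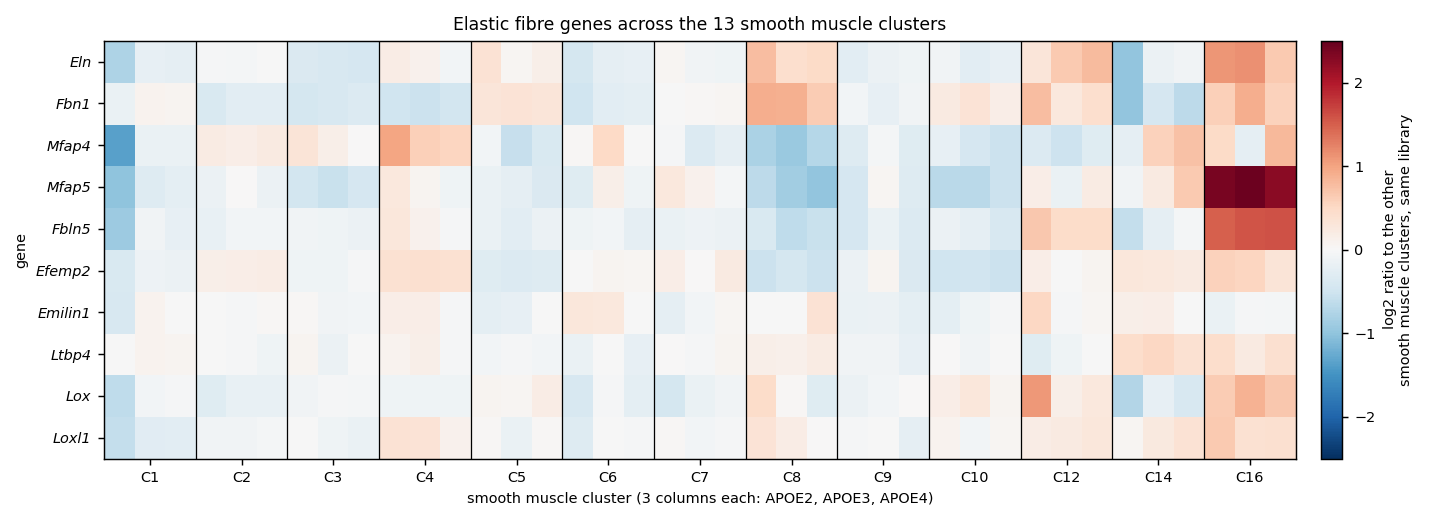
Log2 ratio of the CPM of each elastic fibre gene in a smooth muscle cluster to its CPM in the other 12 clusters of the same library (colour scale from -2.5 to 2.5), for the 13 smooth muscle clusters, with 3 columns each for APOE2, APOE3 and APOE4. C16 stands out for Mfap5 and Fbln5 in all 3 libraries, and C1 and C14 show lower Eln in APOE2 than in the other libraries.

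In a library, the highest cluster for Mfap5 was 8.1 to 9.0 times the lowest, against 4.1 to 4.6 times for Fbln5 and 2.1 to 4.1 times for Eln. The cluster with the highest Mfap5 was C16 in all 3 libraries, at 1155, 1160 and 1197 CPM in APOE2, APOE3 and APOE4, against a median over clusters of 229, 235 and 267 CPM. C16 was led by Adamtsl1, Mdga2 and Prss12 and was left unnamed, and it held 2.89%, 2.32% and 3.26% of the cells of these clusters. Its Mfap5 was close to that of the fibroblast-like cells, while it kept 10 of 10 smooth muscle markers. Of the listed pericyte markers (Rgs5, Kcnj8, Abcc9, Cspg4 and Higd1b) C16 raised 2, and Rgs5 was among its 10 leading genes. Against the other smooth muscle clusters it also raised 2 of 6 markers of the aortic arch, and 0 of 7 of the descending aorta. Fbln5 was also highest in C16, at 1282, 1746 and 1120 CPM, and Eln reached 2589 and 2786 CPM there in APOE2 and APOE3 and 1558 CPM in APOE4.

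C12, led by Spp1, Lcn2 and Prg4, was the cluster in which 8 of 8 markers of modulated smooth muscle cells were higher. Eln there was 1521, 1964 and 1684 CPM, above the other clusters by 0.31, 0.65 and 0.80 on the log2 scale in APOE2, APOE3 and APOE4. Fbln5 was higher than in the other clusters by 0.67, 0.46 and 0.46, and Mfap4 stood at log2 ratios of -0.34, -0.52 and -0.30. Lox in C12 was 151 CPM in APOE2 and 73.7 and 68.5 CPM in APOE3 and APOE4, a log2 ratio of 1.03 from APOE2 to APOE3, the largest among the 13 clusters for Lox. Fbn1 was highest in C8, a cluster with a UMI count of 0.41 times the median of its libraries, in APOE2 and APOE4, at 249 and 177 CPM. For Emilin1 and Ltbp4 the highest cluster was 1.3 to 1.7 times the lowest in a library.

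Across the 39 profiles of 13 clusters by 3 libraries, 36 of 45 pairs of members had a positive Pearson correlation of log2(CPM + 1). The highest by Pearson r were Eln with Fbn1 (r = 0.76, Spearman rho = 0.68), Fbn1 with Lox (r = 0.74) and Eln with Lox (r = 0.73), and the lowest was Fbn1 with Mfap4 (r = -0.29). By Spearman rho the highest were Fbln5 with Efemp2 (0.72) and Loxl1 with Ltbp4 (0.70). The points share libraries and depth, the share of positive pairs among all genes was not counted, and the values are a description. Over 51 profiles of classes and smooth muscle clusters, the gene most like Eln among 6691 genes was Ltbp1 (r = 0.90), that most like Fbn1 was Reck (r = 0.95), and that most like Fbln5 was Sparc (r = 0.91). Efemp2 was most like Rcn3 (r = 0.95), Lox like Fstl1 (r = 0.94), Loxl1 like Mmp23 (r = 0.93) and Mfap4 like Paqr6 (r = 0.91). Mfap5 was most like Nbl1 (r = 0.89), Emilin1 like Ctnnb1 (r = 0.90) and Ltbp4 like Cdc42ep5 (r = 0.92).

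The place of a cell along the aorta can be read from Hand2, a transcription factor gene expressed in the arch, and from Hox genes, which are expressed further down the aorta. Of the cells in the 13 clusters, 3411 in APOE2, 1320 in APOE3 and 1088 in APOE4 had a Hand2 UMI and no UMI of 6 Hox genes, and 1713, 1644 and 2498 had a Hox UMI and no Hand2 UMI. The libraries therefore held these cells in different proportions, with Hand2 cells in excess in APOE2 and Hox cells in excess in APOE4. A further 3404, 1929 and 2552 cells had neither kind of UMI and 216, 114 and 129 had both, and they were left out of either set. The median UMI count was 15312, 22141.5 and 17391 in Hand2 cells and 13431, 19039.5 and 15334 in Hox cells, so the former were deeper in each library.

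Mfap4 and Fbln5 were the members that differed most between these cells. Mfap4 was higher in Hand2 cells by 0.46, 0.78 and 0.74 on the log2 scale in APOE2, APOE3 and APOE4, and Fbln5 by 0.65, 0.46 and 0.56. Emilin1 was higher by 0.44, 0.36 and 0.31, Lox by 0.23, 0.38 and 0.31, and Ltbp4 by 0.18, 0.31 and 0.31. Eln differed little, with log2 ratios of -0.17, 0.04 and 0.02, as did Efemp2, with -0.06, 0.01 and -0.03. At least 1.5-fold higher in Hand2 cells were Fbln5 in APOE2 and Mfap4 in APOE3 and APOE4, 1 of 10 members in each library, against a background of 5.01%, 4.34% and 3.94% of genes in turn. No member was 1.5-fold lower in Hand2 cells, where the background was 3.33%, 2.45% and 2.05%.

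The ratios to APOE3 had the same sign in Hand2 cells and in Hox cells for the members with the largest ratios. From APOE4 to APOE3, Fbln5 had a log2 ratio of -0.56 in Hand2 cells and -0.65 in Hox cells, Emilin1 -0.72 and -0.66, and Eln -0.39 and -0.37. From APOE2 to APOE3, Mfap4 had 0.35 in Hand2 cells and 0.67 in Hox cells, Fbln5 -0.45 and -0.63, and Loxl1 -0.39 and -0.29. From APOE4 to APOE2 the ratio of Fbln5 was -0.11 in Hand2 cells and -0.02 in Hox cells, against -0.30 in all smooth muscle-like cells. That of Mfap4 was -0.57 and -0.84, against -0.88.

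**Figure D4:**
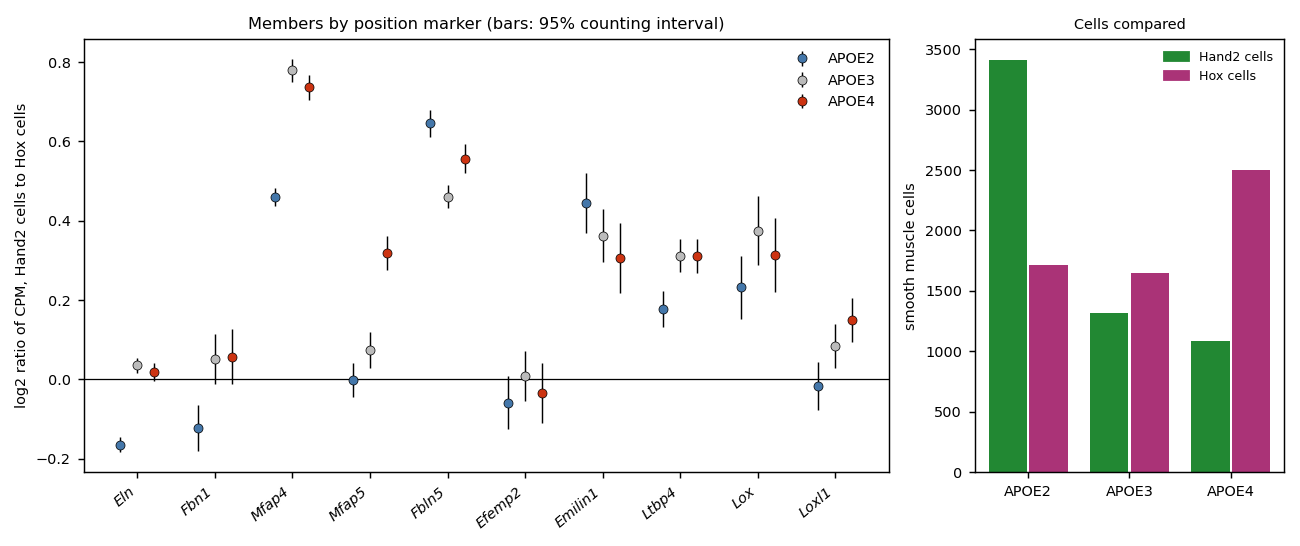
Left, log2 ratio of CPM of each elastic fibre gene between smooth muscle cells with Hand2 UMIs and no Hox UMIs and those with Hox UMIs and no Hand2 UMIs, within each library, with 95% counting intervals. Right, the number of cells of either kind in each library, where Hand2 cells number 3411, 1320 and 1088 and Hox cells 1713, 1644 and 2498 in APOE2, APOE3 and APOE4.

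The fibroblast-like cells fell into 3 main clusters at a finer resolution, and the genotype ratios differed among them. F13, led by Dpp4, Tek and Pla1a, held 41.4% of the APOE2 fibroblast-like cells, 26.0% of those of APOE3 and 20.9% of those of APOE4. F8, led by C1qtnf3, Sfrp2 and Lrrn1, held 33.8%, 40.3% and 41.5%, and F12, led by Cytl1, Mia and Crispld1, held 23.9%, 32.8% and 37.1%. These leading genes were chosen by fold over the other fibroblast-like cells.

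Fbn1 and Mfap5 were highest in F13. Fbn1 stood there at 768, 1085 and 940 CPM in APOE2, APOE3 and APOE4, against 201 to 286 CPM in F8 and F12, and Mfap5 at 1544, 2259 and 2049 CPM, against 739 to 1071 CPM. Mfap4 was highest in F8, at 1538, 2223 and 1889 CPM, and so was Fbln5, at 744, 1239 and 811 CPM, and Lox, at 146, 200 and 178 CPM. Eln was highest in F12, at 706, 906 and 725 CPM. The counting interval of the highest cluster lay above those of the other two for these genes in each library.

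Within F13 the APOE2 library was far below APOE3 for several members. Mfap4 stood at 285 CPM in APOE2 and at 764 and 637 CPM in APOE3 and APOE4, a log2 ratio from APOE2 to APOE3 of -1.42 (interval -1.52 to -1.33). Fbln5 stood at 226, 670 and 478 CPM, a ratio of -1.56 (interval -1.66 to -1.47), and Eln at 227, 410 and 418 CPM, a ratio of -0.86. Emilin1 ran the other way, at 94.01, 53.9 and 36.2 CPM, with a ratio of 0.80 (interval 0.54 to 1.08). In T lymphocyte-like cells of APOE2, APOE3 and APOE4, Mfap4 stood at 273, 118 and 142 CPM and Fbln5 at 298, 587 and 195 CPM. Eln stood there at 648, 1532 and 517 CPM. The APOE2 values of F13 were thus close to the T lymphocyte-like level for Mfap4 and below it for Fbln5 and Eln. The part of RNA from other cells in the F13 values was not tested. In F8 the ratio from APOE2 to APOE3 was -0.53 for Mfap4, -0.74 for Fbln5 and -0.02 for Eln, and in F12 it was 0.13, -0.53 and -0.36. Fbln5 was thus lower in APOE2 than in APOE3 in all 3 clusters, and Mfap4 in F8 and F13 but not in F12. For Mfap5 the ratio from APOE2 to APOE3 was -0.05, 0.52 and -0.55 in F8, F12 and F13, and for Fbn1 0.06, 0.20 and -0.50. From APOE4 to APOE3, Fbln5 was lower in F8, F12 and F13 by ratios of -0.61, -0.61 and -0.49, Emilin1 by -0.72, -0.53 and -0.58, and Ltbp4 was higher by 0.49, 0.33 and 0.33.

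**Figure D5:**
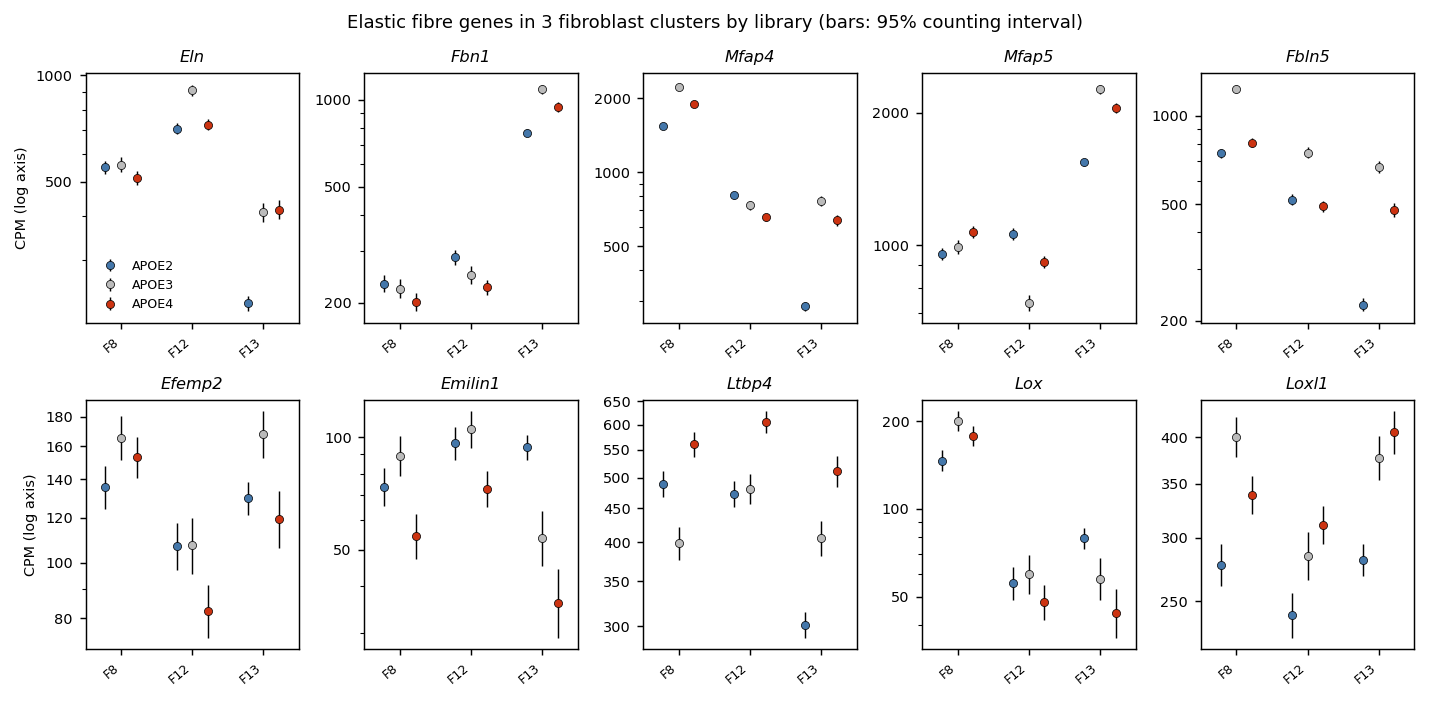
CPM of the 10 elastic fibre genes (log axes, a range of its own in each panel) in the fibroblast clusters F8, F12 and F13 of the APOE2, APOE3 and APOE4 libraries; points are 1 library each and bars are 95% counting intervals. The APOE2 point of F13 lies below the other F13 points for Eln, Mfap4 and Fbln5, at 227, 285 and 226 CPM, and above them for Emilin1 and Lox. T lymphocyte-like cells of APOE2, not drawn here, stood at 648, 273 and 298 CPM for Eln, Mfap4 and Fbln5.

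Levels in the other classes are given beside those in lymphocyte-like cells. T lymphocyte-like cells, which should lack elastin transcripts, showed 648, 1532 and 517 CPM of Eln in APOE2, APOE3 and APOE4, from 129, 24 and 108 cells, with smooth muscle markers at a summed 14680, 8103 and 16419 CPM. After thinning to 1000 UMIs, which left out 3 T lymphocyte-like cells in APOE2, 0 in APOE3 and 1 in APOE4, 9.52% of the 126 cells in APOE2, 6 of 24 cells in APOE3 and 10.3% of the 107 cells in APOE4 had an Eln UMI, against 58.5%, 64.8% and 55.5% of smooth muscle-like cells, and 94.99%, 98.5% and 97.3% of the latter without thinning. Of 277 B lymphocyte-like cells of APOE4, 4.69% had an Eln UMI (interval 2.52% to 7.89%). Among the cells that could be thinned, the median UMI count beforehand was 5729.5 to 8682 in T lymphocyte-like cells and 3799 in the B lymphocyte-like cells, against 13510 to 19833 in smooth muscle-like cells.

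For Mfap5, 55.1%, 58.4% and 62.8% of fibroblast-like cells and 16.3%, 16.2% and 20.05% of smooth muscle-like cells had a UMI after thinning, against 7.14%, 8.33% and 6.54% of T lymphocyte-like cells. Lox was found in 6.63%, 5.49% and 4.74% of smooth muscle-like cells, against 1.44% of the B lymphocyte-like cells of APOE4 (interval 0.39% to 3.66%). In T lymphocyte-like cells Lox summed to 65.0, 102 and 36.8 CPM, against 79.0, 66.1 and 56.6 CPM in smooth muscle-like cells. Mfap5 summed to 270, 118 and 147 CPM, against 216, 206 and 250 CPM. The T lymphocyte-like level was thus the higher one for Lox in APOE3 and for Mfap5 in APOE2. It was also the higher one for Eln in APOE3, at 1532 CPM against 1265 CPM. Against fibroblast-like cells it was the higher one for Eln in APOE2 (648 and 445 CPM) and APOE3 (1532 and 631 CPM). In APOE4 it was the lower one (517 and 575 CPM). In macrophage-like cells an Eln UMI was found in 14.2%, 14.2% and 14.4% of cells in APOE2, APOE3 and APOE4. These shares were above that of T lymphocyte-like cells in APOE2 and APOE4 and below it in APOE3. In APOE4 the share was also above that of B lymphocyte-like cells. The summed Eln of macrophage-like cells was 224, 417 and 476 CPM, and their smooth muscle markers summed to 9045, 20993 and 14692 CPM, both lowest in APOE2. The part of RNA from other cells and of doublets, which were kept, in the values of these classes was not tested.

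Endothelial-like cells numbered 111 in APOE2, 13 in APOE3 and 20 in APOE4, too few for a ratio between libraries. Ltbp4 stood in them at 479 CPM in APOE2 (interval 441 to 520), 983 in APOE3 (interval 816 to 1175) and 872 in APOE4 (interval 718 to 1049). These values were above the level in smooth muscle-like cells of the same library, 241 to 285 CPM, and above that in T lymphocyte-like cells, 64.7 to 99.3 CPM. Fbln5 stood at 517 (interval 477 to 559), 666 (interval 530 to 827) and 187 CPM (interval 120 to 278) in the endothelial-like cells. In T lymphocyte-like cells it stood at 298, 587 and 195 CPM. The endothelial-like intervals of APOE3 and APOE4 held the T lymphocyte-like level of the same library.

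Of 46 further genes of the elastic fibre pathway, 33 to 35 had at least 100 UMIs in a comparison. In smooth muscle-like cells 8 were at least 1.5-fold higher in APOE2 than in APOE3 and 2 were that much lower (Mfap2 and Fbln7), against the 7.42% and 2.64% of all genes given above. The largest were Fbln1, encoding fibulin-1, at 10.8 and 1.76 CPM in APOE2 and APOE3 (log2 ratio 2.61), and Timp1, an inhibitor of metalloproteinases, at 217 and 36.0 CPM (log2 ratio 2.59). Next were Ctss, an elastin-degrading cathepsin, at 0.88 and 0.31 CPM (96 and 27 UMIs), and Fbln2, at 15.4 and 6.10 CPM. Ctss was also among the leading genes of the macrophage-like cells. The macrophage markers summed to 16.6 and 5.62 CPM in smooth muscle-like cells of APOE2 and APOE3, and their part in the Ctss ratio was not tested. Fbln1 and Fbln2 are much higher in fibroblast-like cells, where they stood at 873 and 338 CPM in APOE2, and the fibroblast markers in smooth muscle-like cells were also highest in APOE2; their part in these ratios was not tested.

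From APOE4 to APOE3, 4 of these genes were at least 1.5-fold lower in smooth muscle-like cells, Fbln7 with a log2 ratio of -0.88, and Mmp14, Timp1 and Ctsk with -0.60 each, and Mmrn2 was higher by 0.85, where 2.68% of all genes were that much lower and 5.92% higher. From APOE4 to APOE2, 9 were lower, led by Timp1 (-3.19), Fbln1 (-2.21), Efemp1 (-1.69) and Fbln2 (-1.43), and Mmrn2 was higher, where the background was 8.98% lower and 6.04% higher. Mmp14 encodes a membrane-bound metalloproteinase and Ctsk an elastin-degrading cathepsin. The level of Mmrn2 was low, at 1.61 CPM in APOE2 (176 UMIs) and 1.41 CPM in APOE3 (122 UMIs).

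In fibroblast-like cells Timp1 was the only pathway gene past that fold and higher in APOE2 than in APOE3, at 876 and 163 CPM (log2 ratio 2.43), with 154 CPM in APOE4, where the background was 3.25% higher and 4.76% lower. A further 5 were lower, led by Fbln7 (-1.29), Adamtsl2 (-0.88), Cst3 (-0.71) and Glb1 (-0.69). From APOE4 to APOE3 none was higher and 4 were lower, Adamtsl2 (-1.04), Timp4 (-0.85), Fbln7 (-0.63) and Emilin2 (-0.61), against a background of 3.88% in either direction. From APOE4 to APOE2, Mfap3l and Fbln7 were higher, by 0.68 and 0.66, and Timp1 (-2.51), Loxl2 (-0.76), Timp4 (-0.76) and Fbln2 (-0.61) were lower, against 5.08% higher and 5.21% lower among all genes.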

How the data were processed

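Whole-aorta cells were pooled by genotype and captured as 1 droplet library per genotype. The authors aligned reads to mm10 and counted UMIs with Cell Ranger 7.0.1, and the deposited values are raw UMI counts per gene and cell barcode, with no filter by the authors after cell calling. Counts over whole genes cannot separate overlapping genes or isoforms.

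Cells with at least 200 genes and under 20% mitochondrial UMIs were kept. Each library was normalised with sctransform 0.4.2 (native fit) and integrated by canonical correlation in Seurat 5.3.0 (R 4.3.3), on 3000 features of which 2964 were used after the elastic fibre and pathway genes were left out, and cells were clustered by Louvain at resolution 0.8. Fibroblast-like cells were split at resolution 1.6. A cluster was called smooth muscle-like where at least 8 markers kept 50% of their level over all cells and fewer than 3 markers of any other type were raised (at least 2-fold higher, in at least 10% of cells). Other clusters were named from at least 3 raised markers. A cluster stayed unnamed where it met both rules, where its 10 leading genes held more markers of another type than of its own, or where its UMI count was below its libraries' median divided by 3 and none of its own markers were among them. Leading genes had to be detected in 50% of the cluster's cells, a limit chosen after seeing the data. Scrublet (scanpy 1.11.5) called 1, 0 and 2 cells in APOE2, APOE3 and APOE4 and did not work, so doublets were kept, and the top 5% of scores were removed as an alternative.

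UMIs were summed by class and library in Python 3.11.15 (scipy 1.17.1). CPM carry exact Poisson intervals, ratios exact conditional binomial intervals and shares exact Clopper-Pearson intervals, all at 95%. With 1 library per genotype no p-value was computed. Genes with at least 100 UMIs in the 2 libraries formed the background. Shares were taken after thinning each cell to 1000 UMIs. Correlations used log2(CPM + 1). The interval and ratio code was tested on simulated data.

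The 10 members and all gene lists were chosen with earlier results of these data known. All members are named. Of the other pathway genes, those past 1.5-fold with at least 100 UMIs were named, at most the 4 largest in each direction and comparison. The 3 leading genes identify a cluster, and the gene with the highest correlation is named for each member. Alternatives covered the cell filter, doublets, clustering, classing, scaling, fold and thinning.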

Additional observations from a re-analysis of the deposited data

Results flagged for a closer look

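Some ratios had opposite signs in smooth muscle-like and in fibroblast-like cells, and those whose counting interval left out 0 in both classes are given here. With 1 library per genotype, none of these differences between the classes was tested. From APOE2 to APOE3 the log2 ratio of Mfap4 was 0.54 in smooth muscle-like and -0.74 in fibroblast-like cells, and that of Lox was 0.26 and -0.27. From APOE4 to APOE2 the ratio of Mfap4 was -0.88 in smooth muscle-like and 0.51 in fibroblast-like cells, that of Eln -0.28 and 0.37, and that of Fbln5 -0.30 and 0.44. Within F8, F12 and F13 this Mfap4 ratio was 0.30, -0.30 and 1.16 in turn. That of Eln was -0.10, 0.04 and 0.88, and that of Fbln5 0.12, -0.08 and 1.08. From APOE2 to APOE3 these clusters gave -0.53, 0.13 and -1.42 for Mfap4 and -0.45, -0.10 and 0.46 for Lox. With classes by cell, the fibroblast-like ratio turned for Eln from APOE4 to APOE2 (-0.19) and for Lox from APOE2 to APOE3 (0.10). From APOE4 to APOE3 the ratio of Mfap5 was 0.28 in smooth muscle-like and -0.044 in fibroblast-like cells, the latter with a sign that turned under several alternatives.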

How the results depend on the processing

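Of 750 comparisons of a member ratio with its value under an alternative, 721 kept their sign. In 510 of the 750 the value under the alternative lay within the counting interval of the main ratio. In a further 226 it lay outside that interval. The 14 sign changes of ratios whose counting interval left out 0 are given below. The other sign changes were of ratios whose interval held 0, among Ltbp4 and, in fibroblast-like cells, Fbn1, Emilin1, Loxl1, Lox, Mfap5 and Efemp2. The median shift was 0.02 on the log2 scale (largest 0.61). No paired analysis was possible because each genotype has 1 library. The 13-cluster, Hand2, Hox, without-C1 and mean-of-F8, F12 and F13 settings were chosen after seeing the data. Classes by cell held 2839, 1993 and 2736 smooth muscle-like cells and 1399, 771 and 1004 fibroblast-like cells in APOE2, APOE3 and APOE4. The cause of the shifts was not tested.

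With classes by cell, such ratios turned for APOE2 to APOE3 in smooth muscle-like cells (Eln 0.0093) and fibroblast-like cells (Eln 0.11, Lox 0.10), for APOE4 to APOE3 (Loxl1 -0.0061 in smooth muscle-like, Mfap5 0.038 in fibroblast-like cells) and for Eln from APOE4 to APOE2 in fibroblast-like cells (-0.19). Ratios also turned without C1 (Eln 0.014, APOE2 to APOE3), in Hand2 cells (Mfap5 -0.034, APOE2 to APOE3), with the mean of each cell's CPM (Mfap5 -0.050 for APOE2 to APOE3 and Loxl1 -0.0017 for APOE4 to APOE3 in smooth muscle-like cells, Mfap5 0.046 for APOE4 to APOE3 in fibroblast-like cells), with scaling by the median gene (Efemp2 0.033 for APOE4 to APOE2 in smooth muscle-like, Mfap5 0.056 for APOE4 to APOE3 in fibroblast-like cells) and with the mean over F8, F12 and F13 (Mfap5 0.094, APOE4 to APOE3).

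The median of the 10 ratios in smooth muscle-like cells for APOE2 to APOE3 was -0.12 with classes by cell, -0.13 in the 13 clusters, -0.24 in Hand2 cells, -0.10 in Hox cells, -0.093 without C1, -0.19 with the mean of each cell's CPM and -0.19 scaled by the median gene. For APOE4 to APOE3 it was -0.19 in Hand2 cells, -0.15 in Hox cells and -0.19 scaled. For APOE4 to APOE2 it was -0.22 at resolution 1.6, -0.13 in Hand2 cells, -0.14 in Hox cells, -0.33 without C1, -0.22 with the mean of each cell's CPM and -0.15 scaled. In fibroblast-like cells it was -0.13 scaled for APOE4 to APOE3 and 0.045 with classes by cell for APOE4 to APOE2.

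Counts past the fold also moved. For APOE2 to APOE3 in smooth muscle-like cells, 1 member was higher with classes by cell, in the 13 clusters, in Hox cells and without C1, 1 was lower in Hox cells, and at 1.25-fold 1 was higher and 2 lower. For APOE4 to APOE3, 1 was lower in Hand2 cells and scaled, 0 at 2-fold and 5 at 1.25-fold. For APOE4 to APOE2, 0 were lower in Hand2 cells and at 2-fold, and at 1.25-fold 1 was higher and 3 lower. In fibroblast-like cells for APOE2 to APOE3, 1 was lower at 2-fold and 4 at 1.25-fold. For APOE4 to APOE3, 1 was lower with unrestricted features, with classes by cell and with the mean over F8, F12 and F13, and at 1.25-fold 1 was higher and 4 lower. For APOE4 to APOE2, 1 was higher without the top 5% of Scrublet scores and scaled, 2 with classes by cell, and 5 at 1.25-fold, where 2 were lower, and 0 were lower with the mean of each cell's CPM, scaled and at 2-fold.

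Over the 13 smooth muscle clusters the median highest-to-lowest fold of the 10 members was 3.36, 2.32 and 2.09 in APOE2, APOE3 and APOE4. It was 2.57 in APOE2 over the 9 clusters at resolution 0.4. Over the 20 clusters at resolution 1.6 it was 3.22 in APOE3 and 3.21 in APOE4. Such a fold can rise with the number of clusters, whose part in these shifts was not tested.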
